A study of Mus musculus with 10 samples.

Results

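Notch signalling was followed in MuSCs, the satellite stem cells of mouse skeletal muscle grown in culture, through 7 genes chosen by name. They are the ligand Jag1, the receptors Notch1, Notch2 and Notch3, the DNA-binding effector Rbpj and the target genes Hes1 and Heyl. Every peak listed with the symbol of such a gene was taken from 2 tables and was also summed by gene identifier. The table for H4K20me1, the monomethyl mark on lysine 20 of histone H4, held 15 such peaks of 44925, on 6 of 14565 listed genes. The table for elongating RNA polymerase II, phosphorylated on serine 2 of its tail repeat (Pol II S2P), held 64 such peaks of 51322, on 6 of 11251 listed genes. Hes1 had no listed H4K20me1 peak, and Jag1 had no listed Pol II S2P peak.

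Both marks were mapped by CUT&RUN, where a nuclease tethered through the antibody cuts out the bound chromatin and the freed DNA is sequenced. Ctrl MuSCs had the genotype Pax7CreERT/Suv4-20h1WT and sKO MuSCs the genotype Pax7CreERT/Suv4-20h1KO, Suv4-20h1 being another name of the histone methyltransferase gene Kmt5b. Both genotypes therefore carried the tamoxifen-inducible Cre that is driven from the Pax7 locus. A floxed Kmt5b is thus removed in cells with active Pax7 during tamoxifen and stays removed in their descendants. Cells outside this lineage keep it. The study's methods state that adult mice on a C57BL/6 background received tamoxifen, and that MuSCs were purified with magnetic beads and expanded in medium with serum, LIF and bFGF. Each genotype had 2 libraries per antibody, 8 in all, and 2 IgG libraries were not analysed here. The replicates are described as biological, but nothing ties a library to an animal or culture. The p-values therefore apply only to these samples, and the spread behind them is largely pooled over the features of a table.

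Notch receptors are activated by ligands such as Jag1 on a neighbouring cell, which leads to cleavage of the receptor and release of its intracellular domain into the nucleus. There the domain binds Rbpj and a Mastermind coactivator and switches on genes of the Hes and Hey families. In muscle this pathway is known for keeping MuSCs quiescent and undifferentiated. H4K20me1 is deposited by Kmt5a, often over the bodies of transcribed genes, and is the substrate from which Kmt5b makes H4K20me2.

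The values are scores, the normalised coverage of a peak in a library as whole numbers, which are not divided by the length of the peak. Over all peaks they summed to between 15218720 and 20432644 in Ctrl and between 32194136 and 35046570 in sKO for H4K20me1, and to between 3257665 and 4885638 in the 4 Pol II S2P libraries. The labels state that DNA of S2 cells, a fly cell line, was spiked in, and the methods describe coverage normalised by a spike-in, but whether the scores carry that scale could not be checked. Differences were therefore also computed after bringing the 4 libraries of an antibody to equal totals. Such values compare shares of a library. A feature called lower on equal totals holds a smaller share, not necessarily less of the mark. The paper reports a rise of H4K20me1 in sKO MuSCs by western blot and immunofluorescence. The peaks could not check the deletion, because Kmt5b held H4K20me1 scores of 1332 and 1740 in Ctrl against 1934 and 2196 in sKO, and Pol II S2P scores of 24, 62, 48 and 22. Of 8 muscle stem cell markers, 6 had a Pol II S2P peak, with summed scores of 5230 and 5873 in Ctrl against 6292 and 4220 in sKO, whereas Myf5 and Cdh15 had none. Desmin (Des) held the largest part of these sums (1987 to 3212). Myod1, the myogenic transcription factor gene, held 1329 and 1110 in Ctrl against 887 and 649 in sKO. On the scores as deposited Myod1 did not pass the test described below (log2 fold change -0.68). After equal totals it passed as lower, at -0.82 (adjusted p from limma = 0.000406), as did 73 of 8531 tested genes. None of 3 fibro-adipogenic markers had such a peak, and Pecam1 of the endothelial markers and Cd74 of the blood cell markers had the sums 82 to 147 and 29 to 39.

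The 250 bases 5′ of the RefSeq transcript start (GRCm38.p6) are shown for 5 genes, because these starts lay differently to the H4K20me1 peaks described below. The Notch2 sequence lies at chr3:98013288-98013537 on the plus strand, inside the Notch2 peak nearest the listed start. The Notch1 sequence lies at chr2:26503823-26504072 on the minus strand, inside the second and longer Notch1 H4K20me1 peak. The Jag1 sequence lies at chr2:137116521-137116770 on the minus strand, inside the Jag1 peak. The Notch3 sequence lies at chr17:32166891-32167140 on the minus strand, 1292 bases from the nearest H4K20me1 peak and 1055 bases from the nearest Pol II S2P peak. The Rbpj sequence lies at chr5:53590096-53590345 on the plus strand, inside the second Rbpj H4K20me1 peak and overlapped by a Pol II S2P peak.
Notch2: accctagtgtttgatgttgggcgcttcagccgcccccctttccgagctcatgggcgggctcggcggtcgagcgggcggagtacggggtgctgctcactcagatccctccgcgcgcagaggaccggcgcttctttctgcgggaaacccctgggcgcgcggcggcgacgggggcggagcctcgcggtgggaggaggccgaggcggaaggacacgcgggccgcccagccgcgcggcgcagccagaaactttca
Notch1: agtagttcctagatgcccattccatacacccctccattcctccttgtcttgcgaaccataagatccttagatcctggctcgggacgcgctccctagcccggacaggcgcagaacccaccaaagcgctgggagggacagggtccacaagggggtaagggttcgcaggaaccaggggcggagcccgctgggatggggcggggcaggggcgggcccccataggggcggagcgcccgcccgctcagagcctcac
Jag1: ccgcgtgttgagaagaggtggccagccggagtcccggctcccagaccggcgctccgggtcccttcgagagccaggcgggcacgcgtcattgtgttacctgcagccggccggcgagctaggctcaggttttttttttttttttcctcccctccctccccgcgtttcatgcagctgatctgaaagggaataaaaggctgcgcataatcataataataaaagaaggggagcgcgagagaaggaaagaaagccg
Notch3: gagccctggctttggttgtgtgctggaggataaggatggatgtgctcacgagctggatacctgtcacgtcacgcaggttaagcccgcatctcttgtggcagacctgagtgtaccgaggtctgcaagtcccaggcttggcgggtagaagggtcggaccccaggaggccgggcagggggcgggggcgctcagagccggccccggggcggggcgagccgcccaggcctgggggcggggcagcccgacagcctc
Rbpj: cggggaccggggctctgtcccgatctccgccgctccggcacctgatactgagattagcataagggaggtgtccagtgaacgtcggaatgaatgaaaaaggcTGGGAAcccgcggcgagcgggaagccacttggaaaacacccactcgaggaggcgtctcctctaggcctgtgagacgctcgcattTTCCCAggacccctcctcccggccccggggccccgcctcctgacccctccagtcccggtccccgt
Capitals mark the letters TGGGAA or TTCCCA, the same core of the Rbpj motif read on either strand. Both strands were searched, and no 2 matches overlapped. The Rbpj sequence held 2 matches and the Notch2, Notch1, Jag1 and Notch3 sequences held 0, and 21.6% of 32851 such RefSeq windows held at least 1. The Notch2 window held 34 CpG dinucleotides and the other windows shown 16 to 21, against a median of 6 over all windows. RefSeq windows were matched for 5 of the 7 genes, and Hes1 and Heyl had none.

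H4K20me1 over the Notch genes was higher in sKO than in Ctrl MuSCs at 5 of the 6 genes with a peak. Here a gene was called when the adjusted p from limma, a linear model fitted across all genes, was below 0.1 and the log2 fold change of sKO over Ctrl was beyond 0.5. Of all 13750 genes tested, 92.3% were called higher and 0% lower, so the share of Notch genes called was near that of the background. At all 6 genes the sKO libraries were both above both Ctrl libraries, as at 96.5% of the tested genes. The fold change differed between members. It was lowest at Rbpj and highest at Jag1, 0.39 and 1.90 on the log2 scale, with a median of 1.15 over the 6 genes and of 1.11 over all tested genes. After equal totals, Jag1 was the member called higher and Rbpj the member called lower, where 24.1% and 4.31% of all tested genes were called in those directions. Without sKO replicate 1 the log2 fold changes of the 6 genes ran from 0.45 at Rbpj to 1.95 at Jag1. Without sKO replicate 2 they ran from 0.34 to 1.85, and the medians over all tested genes in these fits were 1.17 and 1.05. Fewer genes were called in both fits across the whole table, so a lost call is not particular to a Notch gene.

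**Figure D1:**
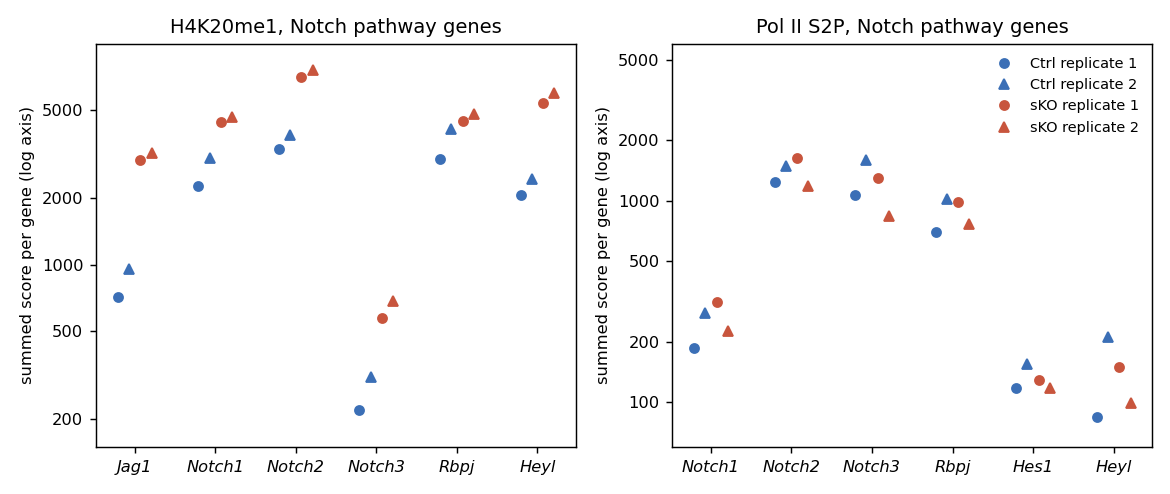
Summed score of each Notch gene in each library on a log axis, H4K20me1 on the left and Pol II S2P on the right, with Ctrl in blue, sKO in red, circles for replicate 1 and triangles for replicate 2. In H4K20me1 both red points lie above both blue points at each of 6 genes, from a close pair of groups at Rbpj (3026 to 4139 against 4469 to 4843) to a wide gap at Jag1 (715 to 957 against 2985 to 3208), whereas in Pol II S2P the groups overlap at all 6 genes.

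Jag1 encodes a transmembrane ligand of the Notch receptors. Its H4K20me1 lay in 1 peak of 51.6 kb (GRCm38 chr2:137071000-137122599) that covered all 26 exons of the transcript used and also reached Slx4ip. The peak held scores of 715 and 957 in Ctrl against 2985 and 3208 in sKO. The sKO libraries were well above the Ctrl libraries, with group means of 3096.5 ± 158 and 836 ± 171 (SD, n = 2 each). This gave 1.90 ± 0.27 as log2 fold change (SE, limma adjusted p = 1.17e-10), a value above that of 93.6% of tested genes. On equal totals it was 0.97 and still called, and the sum was called under each of the 10 other settings, from 0.89 with quantile normalisation to 2.11. Of the 6 genes Jag1 had the lowest H4K20me1 per length in Ctrl, 13.9 and 18.6 score per kb, and in sKO it had 57.9 and 62.2.

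Notch1, a receptor with a known part in MuSC quiescence, held summed H4K20me1 scores of 2271 and 3048 in Ctrl against 4443 and 4654 in sKO. The groups did not overlap, with means of 2659.5 ± 549 and 4548.5 ± 149 (SD, n = 2 each), and the log2 fold change was 0.79 ± 0.28 (SE, limma adjusted p = 0.00671). The call was lost without sKO replicate 1 (adjusted p = 0.252) or sKO replicate 2 (adjusted p = 0.311), and on equal totals the value was -0.14. The gain was unequal along the gene. The peak nearest the start listed for the gene (chr2:26510200-26519199, 9.0 kb) lies upstream of the main coding transcript and over the start of a longer alternative transcript, and it went from 86 and 120 in Ctrl to 432 and 557 in sKO. Its log2 fold change was 2.26 ± 0.32 (limma adjusted p = 1.07e-10), and 1.34 on equal totals. The peak over the coding exons (chr2:26441400-26508199, 66.8 kb, exons 1 to 34, also reaching Sec16a) went from 2185 and 2928 to 4011 and 4097, or 0.68 ± 0.28 as log2 fold change (adjusted p = 0.0209), and had a value of -0.25 on equal totals. The peak nearest the listed start was called whichever library was left out, but that over the coding exons was not called without Ctrl replicate 1 (0.47) or without sKO replicate 1 or 2 (adjusted p = 0.343 and 0.381).

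Notch2, the receptor with the most H4K20me1 peaks here (133.2 kb in all), held summed scores of 3355 and 3879 in Ctrl against 7061 and 7619 in sKO. Both sKO libraries were above both Ctrl libraries, with means of 3617 ± 371 and 7340.0 ± 395 (SD, n = 2 each), and the log2 fold change was 1.02 ± 0.29 (limma adjusted p = 0.000623). This call too was lost without sKO replicate 1 or 2 (adjusted p = 0.158 and 0.220), and on equal totals the value was 0.09. Its 5 peaks run from the start of the gene to beyond its end. The peak over exons 1 and 2 (chr3:98009800-98058599, 48.8 kb) went from 1001 and 1018 in Ctrl to 2918 and 2924 in sKO. The last peak, over exons 31 to 34 (chr3:98142000-98155199), went from 385 and 450 to 540 and 633. The log2 fold changes were 1.53, 0.92, 0.71, 0.73 and 0.49 from the start to the end of the gene, and the last was not called (adjusted p = 0.089). On equal totals the peak at the start kept a value of 0.60 (adjusted p = 3.82e-14), and the other 4 peaks had values of -0.01 to -0.44. The start peak was called whichever library was left out, whereas peaks 2 to 4 were not called without sKO replicate 1 (adjusted p = 0.128, 0.337 and 0.21) or sKO replicate 2 (0.218, 0.281 and 0.345). Peak 3 was not called without Ctrl replicate 1 either (0.191), and the last was called without Ctrl replicate 2 (0.00273).

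Notch3, a receptor known from vascular smooth muscle and from MuSCs, held little H4K20me1, with summed scores of 220 and 310 in Ctrl against 577 and 688 in sKO. The groups were well apart, with means of 265 ± 63.6 and 632.5 ± 78.5 (SD, n = 2 each), and the log2 fold change was 1.27 ± 0.28 (limma adjusted p = 1.39e-05). It was not called on equal totals (0.34) or after quantile normalisation (0.0055). The peak over exon 2 and parts of introns 1 and 2 (chr17:32160800-32165599, 4.8 kb) went from 53 and 60 in Ctrl to 260 and 301 in sKO. Its log2 fold change was 2.29 ± 0.39 (adjusted p = 7.54e-08). The peak over exons 13 to 20 (chr17:32145000-32153199, 8.2 kb) went from 167 and 250 to 317 and 387, or 0.77 ± 0.31 as log2 fold change (adjusted p = 0.0146). In Ctrl the downstream peak held most of the score, whereas in sKO both peaks held similar scores. On equal totals the values of the peaks were 1.37 and -0.15. The peak over exons 13 to 20 was not called without Ctrl replicate 1 (log2 fold change 0.48) or without sKO replicate 1 or 2 (adjusted p = 0.141 and 0.307).

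Rbpj, the DNA-binding protein on which the receptor fragments converge, was the member whose H4K20me1 sum was not called. Its summed scores were 3026 and 4139 in Ctrl against 4469 and 4843 in sKO. The sKO libraries were above the Ctrl libraries by less than the Ctrl libraries differed from each other, with means of 3582.5 ± 787 and 4656 ± 264.5 (SD, n = 2 each), and the log2 fold change was 0.39 ± 0.28 (limma adjusted p = 0.173). Only 4.07% of tested genes had a smaller value. Without Ctrl replicate 2 the sum was called, at 0.62 (adjusted p = 4.65e-05), and on equal totals it was called lower, at -0.54 (adjusted p = 1.35e-12).

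The small change of the Rbpj sum held peaks that differed. The peak near the listed start, that of an upstream alternative transcript (chr5:53468400-53474399, 6.0 kb), went from 29 and 43 in Ctrl to 264 and 187 in sKO, or 2.62 ± 0.46 as log2 fold change (limma adjusted p = 2.13e-07). The peak over exons 1 to 4 of the main transcript (chr5:53584600-53627599, 43.0 kb), which contains the Rbpj sequence shown above, held 1802 and 2486 in Ctrl against 2269 and 2497 in sKO. These groups overlapped, with a log2 fold change of 0.17 ± 0.28 (adjusted p = 0.549). The remaining 2 peaks, over exons 5 to 13 and over the end of the gene, had values of 0.49 (adjusted p = 0.0747, not called) and 0.69 (adjusted p = 0.0164). On equal totals the upstream peak was called higher at 1.70 and the peak over exons 1 to 4 was called lower at -0.76. Rbpj peak 3 was called without Ctrl replicate 2 (adjusted p = 8.38e-06), peak 4 was not called without sKO replicate 1 or 2 (0.196 and 0.332), and peak 2 had a value of -0.0627 without Ctrl replicate 1.

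Heyl, a transcriptional repressor of the Hey family, lay within a domain of 100.2 kb (chr4:123171200-123271399). The domain also covered Hpcal4, Nt5c1a and Pabpc4, and Heyl itself spans only 16.3 kb of it. The domain held scores of 2081 and 2441 in Ctrl against 5384 and 6020 in sKO. The groups were far apart, with means of 2261 ± 255 and 5702 ± 449.7 (SD, n = 2 each), and the log2 fold change was 1.34 ± 0.28 (limma adjusted p = 7.98e-06), which was 0.41 on equal totals and was not called without sKO replicate 2 (adjusted p = 0.124). Since the domain spans 4 protein-coding genes, the score does not belong to Heyl alone. Hes1, the other target gene and a repressor of the basic helix-loop-helix class, had no peak listed with it, although a peak listed with no gene ended 1385 bases 5′ of it.

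**Figure D2:**
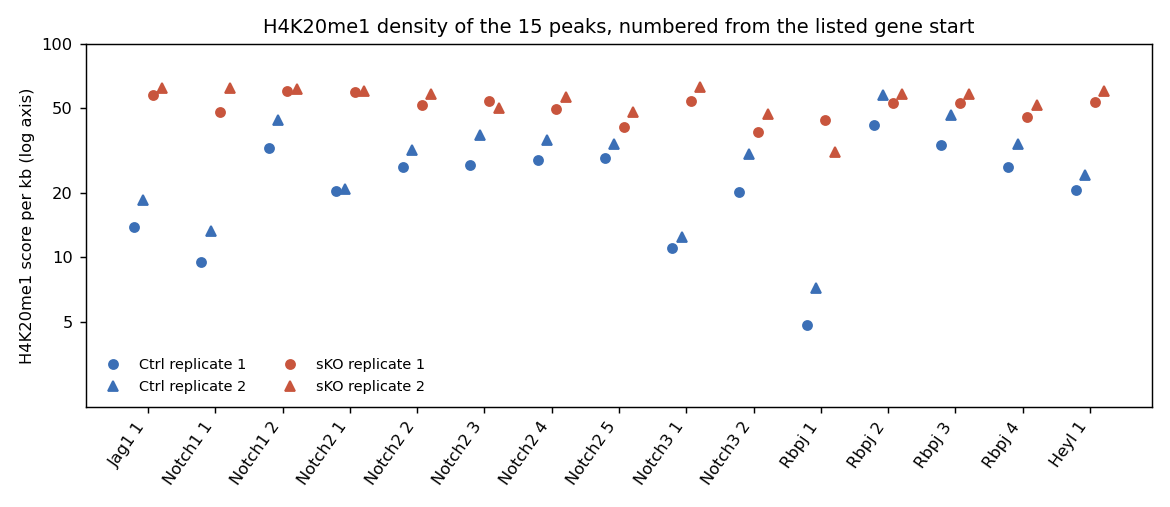
H4K20me1 score per kb, on a log axis, of the 15 peaks of the Notch genes, numbered from the start listed for each gene, with Ctrl in blue, sKO in red, circles for replicate 1 and triangles for replicate 2. Ctrl values are lowest at Rbpj peak 1 and highest at Rbpj peak 2 (mean 49.9), and in sKO these peaks reach means of 37.6 and 55.4.

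Levels per length were more alike in sKO than in Ctrl. In Ctrl the order from high to low was Rbpj (mean 40.9 score per kb), Notch1 (35.1), Notch2 (27.2), Heyl (22.6), Notch3 (20.4) and Jag1 (16.2). Both Ctrl libraries gave this order, but the ranges of neighbours overlapped except at Notch2 (25.2 and 29.1), which lay apart from Notch1 (30.0 and 40.2) above it and from Heyl (20.8 and 24.4) below it. In sKO the means lay between 48.7 at Notch3 and 60.01 at Notch1, and Jag1 had also reached 60.01. The ratio of the highest to the lowest mean fell from 2.52 in Ctrl to 1.23 in sKO, and the SD of the log2 level per kb across the 6 genes from 0.50 to 0.12. Over all 13750 tested genes that SD went from 0.48 to 0.19 and the median level from 23.2 to 50.3 score per kb. Genes within a library are not independent, and no test was made of the spread.

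Peaks with a low level in Ctrl gained more across the whole table, so the start peaks were set beside peaks in the same band of Ctrl level. With all tested H4K20me1 peaks cut into 4 bands of near equal size by their Ctrl score per kb, the median log2 fold change fell from 1.75 in the lowest band to 1.28, 0.997 and 0.72 in those above. Rbpj peak 1, Notch3 peak 1 and Notch1 peak 1 were in the lowest band, where their fold changes were at percentiles 95.2, 87.4 and 86.3. That band ran from 2.895 to 17.82 score per kb, and these peaks had 6.0, 11.77 and 11.44 in Ctrl. They were therefore not matched for level within the band, and the Ctrl score also enters the fold change. Notch2 peak 1 was at percentile 89.0 of the second lowest band. Jag1 was at percentile 65.2 of the lowest band, nearer to its middle, and the Heyl domain at percentile 95.3 of the second highest. Rbpj peak 2 was in the highest band, at percentile 3.66. Of all 15 peaks of the Notch genes, 12 were called higher and 0 lower, against 90.1% of tested peaks called higher. After equal totals 5 were called higher and 1 lower, against 25.9% and 3.31% of tested peaks. Without sKO replicate 1 or sKO replicate 2 fewer peaks were called, at the Notch genes and across the whole table.

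**Figure D3:**
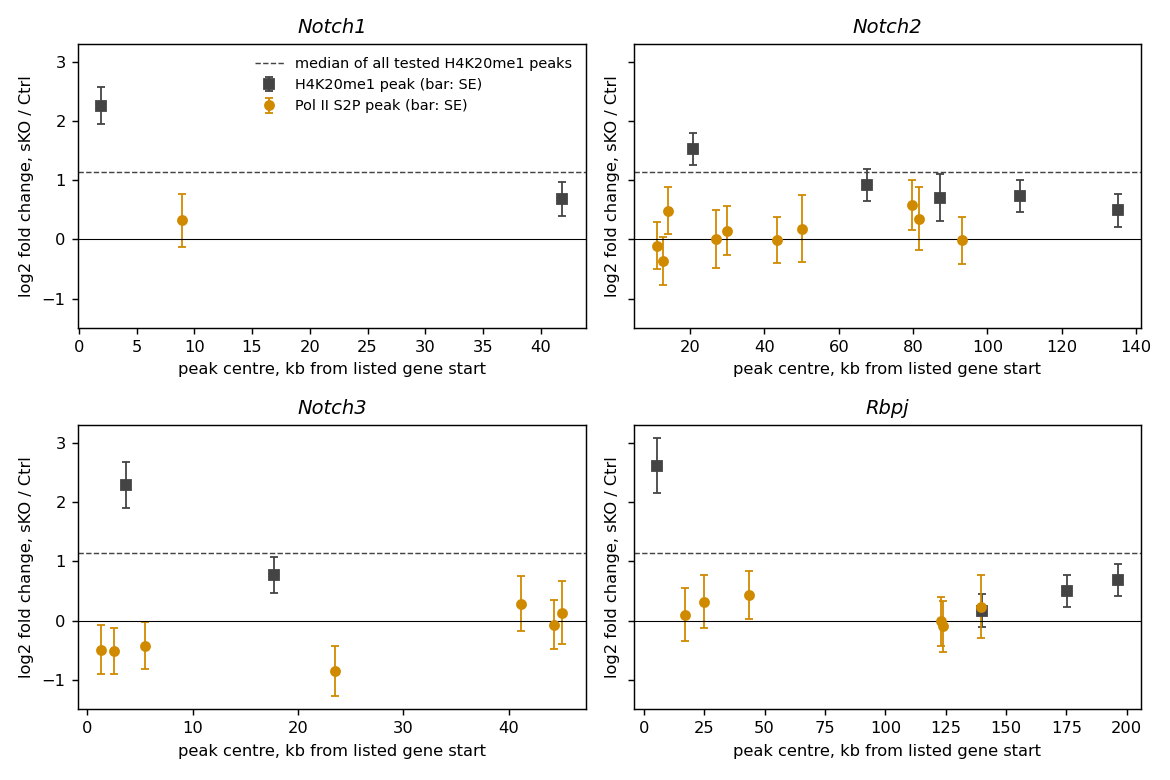
Log2 fold change of sKO over Ctrl (y axis, bars are SE) of each tested peak against the distance of its centre from the listed start in kb (x axis), for Notch1, Notch2, Notch3 and Rbpj, with grey squares for H4K20me1 and orange circles for Pol II S2P. The square nearest the start is the highest in each panel (2.26, 1.53, 2.29 and 2.62), above the dashed line at 1.14, the median of all tested H4K20me1 peaks, while the circles lie between -0.85 and 0.58.

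In each of the 4 Notch genes with more than 1 H4K20me1 peak, the peak nearest the listed start had the highest fold change, which was so in 40.3% of all 5723 genes with 2 or more peaks. The share was 53.8% of genes with 2 peaks, as Notch1 and Notch3 have, and 35.5% and 26.9% of genes with 4 and 5 peaks, as Rbpj and Notch2 have. To take the scale of the libraries out, the score of this peak was divided by that of the gene's other peaks within each library. This measure was added after the data were seen, and the fold changes already fixed its direction in the 4 genes, so its values are a description and not a further test. At Notch1 the peak held 3.79% and 3.94% of the gene's score in Ctrl against 9.72% and 11.97% in sKO. At Notch3 the share was 24.1% and 19.4% in Ctrl against 45.1% and 43.8% in sKO. Notch2 had shares of 29.8% and 26.2% in Ctrl against 41.3% and 38.4% in sKO. At Rbpj the share was below that of the receptors, 0.958% and 1.04% in Ctrl against 5.91% and 3.86% in sKO. Over the 5723 genes the ratio was higher in sKO at 54.1%, and the overlap of single libraries was not counted.

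The log2 ratio was higher in sKO by 2.28 ± 0.29 at Rbpj, 1.58 ± 0.19 at Notch1, 1.52 ± 0.18 at Notch3 and 0.77 ± 0.16 at Notch2 (SE). Of the 5723 genes, whose median was 0.04, 10.9% were called higher, these 4 among them. The Rbpj, Notch1 and Notch3 values were above those of 99.9%, 99.1% and 98.8% of these genes, and that of Notch2 above 90.9%. The genes compared here were not matched for the Ctrl level of this peak. Without sKO replicate 1 or sKO replicate 2 no gene of the 5723 was called. The values themselves were positive whichever library was left out, from 0.64 at Notch2 to 2.60 at Rbpj.

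**Figure D4:**
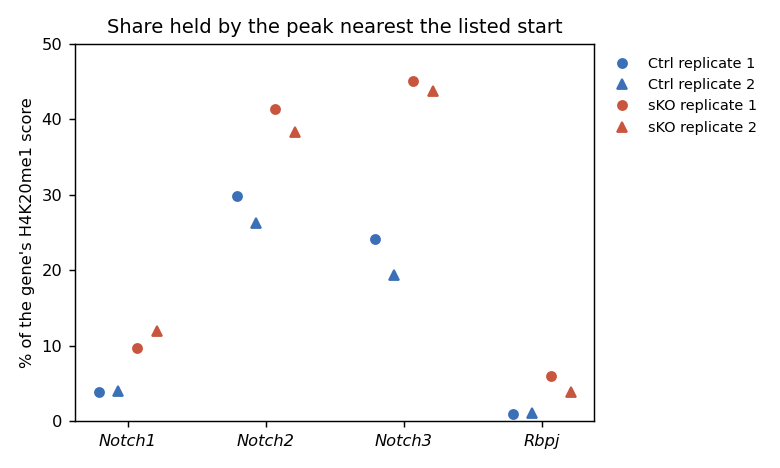
Share of a gene's H4K20me1 score, in percent, that lies in the peak nearest the listed start, for Notch1, Notch2, Notch3 and Rbpj in each library, with Ctrl in blue and sKO in red. At Rbpj the sKO points lie at 3.86% and 5.91% against 0.958% and 1.04% in Ctrl. At Notch3 they lie at 43.8% and 45.1% against 19.4% and 24.1% in Ctrl.

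Elongating polymerase over the Notch genes did not pass the test in either direction. None of the 6 genes with a Pol II S2P peak was called, with limma adjusted p of 1 in each, and 0 of 6 had an unadjusted p below 0.05. Of all 8531 genes tested 0% were called higher and 0% lower, although 100 had an unadjusted p below 0.05, 95 of them higher in sKO. The log2 fold changes of the Notch genes ran from -0.33 to 0.23, with SE of 0.41 to 0.43, so a change of a size common in H4K20me1 could have gone undetected. The median over all tested genes was 0.089.

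Among the receptors, the summed Pol II S2P of Notch1 was 186 and 276 in Ctrl against 314 and 225 in sKO (log2 fold change 0.23 ± 0.41). Notch2 held 1242 and 1480 in Ctrl against 1630 and 1187 in sKO (log2 fold change 0.04 ± 0.43). Notch3 held 1074 and 1595 in Ctrl against 1295 and 837 in sKO (log2 fold change -0.33 ± 0.43). In each receptor the groups overlapped, and libraries of 1 genotype differed by more than the group means did. For the nuclear effector Rbpj the scores were 697 and 1026 in Ctrl against 981 and 765 in sKO (0.03 ± 0.43). The target genes had lower sums, 118 and 154 in Ctrl against 129 and 118 in sKO at Hes1 (-0.13 ± 0.41), and 84 and 210 against 149 and 99 at Heyl (-0.13 ± 0.41). At no member were the sKO libraries both above both Ctrl libraries, as they were at 9.41% of tested genes.

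Per length of peak, the Pol II S2P level in Ctrl ran from 159 score per kb at Notch3 through Notch2 (138), Hes1 (128), Rbpj (112) and Notch1 (108) to 96.7 at Heyl, and in sKO from 143 at Notch2 to 81.6 at Heyl. The median over all tested genes was 139 in Ctrl and 151.5 in sKO. The strongest Notch2 peak, in intron 2 (chr3:98056616-98057383), held nearly the same score in all 4 libraries, 189 and 184 in Ctrl against 185 and 185 in sKO. The peak at the Notch1 promoter sequence shown above (chr2:26503619-26503863, exon 1) held 33 and 32 in Ctrl against 16 and 16 in sKO. The sKO scores there were below the Ctrl scores, but the mean was under the limit of 50 for testing. The peak at the Rbpj sequence (chr5:53589962-53590510, exon 1) held 60 and 102 in Ctrl against 66 and 81 in sKO, with overlapping groups. The Hes1 peak in exon 1 (chr16:30064987-30065602) held 88 and 101 in Ctrl against 88 and 81 in sKO, which touched at 88.

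Across all 64 Pol II S2P peaks of the Notch genes, 40 lay in introns, 16 overlapped an exon and 8 lay outside the transcript used. Both sKO scores were above both Ctrl scores at 3 peaks, all in Notch2, and below at 9 peaks, of which 3 were in Notch3, 3 in Rbpj, 2 in Notch2 and 1 in Notch1. Over all 37256 autosomal peaks listed with a gene, 13.7% were above and 7.37% below. Of the 26 peaks that passed the filter on low scores, 14 had a positive and 12 a negative log2 fold change, from -0.85 to 0.58, and 0 were called, against 0.0447% of all 22353 tested peaks called higher. The 3 Notch2 peaks with higher sKO scores had 107 and 104 against 159 and 138 (peak 4), 20 and 29 against 44 and 32 (peak 7), and 60 and 76 against 118 and 87 (peak 15).

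Notch3 was the member whose Pol II S2P was lowest relative to the other genes, its log2 fold change being above that of only 4.96% of tested genes. After equal totals the gene's value was -0.47 (limma adjusted p = 0.0186), which is short of the limit of 0.5 in size. The unscaled value of -0.33 was -0.02 without sKO replicate 2 and -0.04 without Ctrl replicate 2, and without Ctrl replicate 1 that of Heyl (-0.78) was lower than that of Notch3 (-0.61). Peak 2, at exon 2 (chr17:32163572-32164943), held 261 and 390 in Ctrl against 248 and 200 in sKO, with both sKO scores lower. Peak 7, at exon 24 (chr17:32143029-32143613), held 91 and 136 in Ctrl against 56 and 67 in sKO, again with both sKO scores lower, and its log2 fold change of -0.85 ± 0.42 was the 1 of 26 with an unadjusted p below 0.05 (0.0437). Peak 4, in intron 2 (chr17:32160605-32162098), held 324 and 381 in Ctrl against 356 and 192 in sKO, with overlapping groups. After equal totals these 3 peaks were called lower, at -0.66, -0.99 and -0.56 (adjusted p = 0.0258, 0.0316 and 0.0615), against 1.19% of tested peaks called lower, and no peak of another Notch gene was called.

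**Figure D5:**
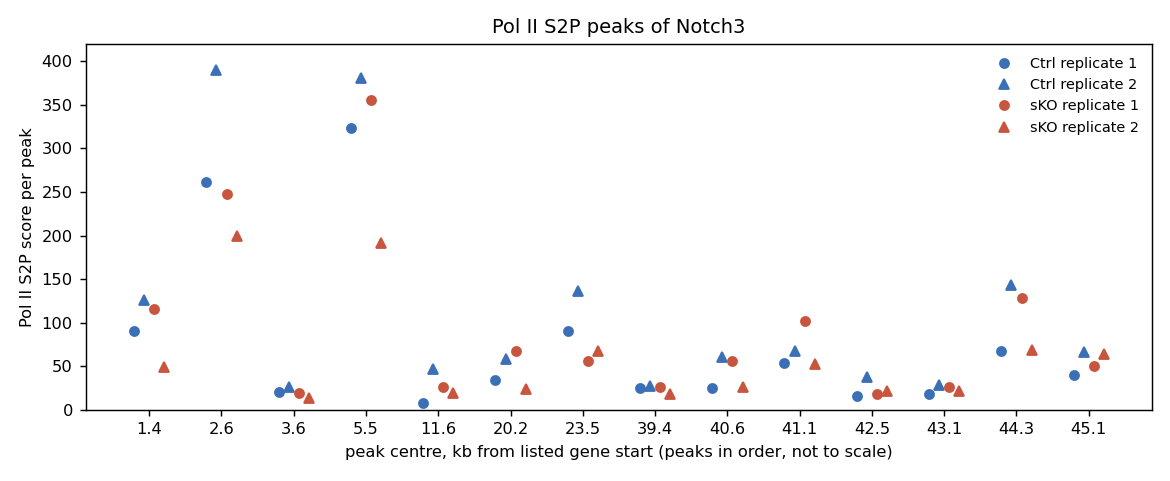
Pol II S2P score of the 14 Notch3 peaks in each library, in order from the start of the gene, with Ctrl in blue, sKO in red, circles for replicate 1 and triangles for replicate 2. Peaks 2 and 4 carry the highest scores, between 192 and 390, and the sKO points lie below the Ctrl points at peaks 2, 3 and 7.

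The 2 marks were then set side by side along the genes. Of the 64 Pol II S2P peaks of the Notch genes, 47 (73.4%) overlapped an H4K20me1 peak by at least 1 base, against 69.4% of all 37256. All 6 Notch1 peaks, 19 of 20 in Notch2, 14 of 19 in Rbpj and all 3 in Heyl did so, but only 5 of 14 in Notch3 and 0 of 2 in Hes1. Within the Notch3 peak from intron 1 to intron 2, H4K20me1 rose from 53 and 60 to 260 and 301. The Pol II S2P peaks there summed to 695 and 923 in Ctrl against 739 and 454 in sKO. Within the Notch2 peak over exons 1 and 2 they summed to 832 and 970 in Ctrl against 1033 and 767 in sKO. Within Rbpj peak 2, whose H4K20me1 was not called, they summed to 342 and 501 in Ctrl against 471 and 368 in sKO. In all 3 stretches the Pol II S2P groups overlapped, and no Pol II S2P peak of the gene lay in the start peaks of Notch1 and Rbpj.

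Of 55 other genes of the pathway, 40 had an H4K20me1 peak and all 40 were tested. Of these, 38 were called higher and 0 lower, beside 92.3% and 0% of all tested genes, with a median log2 fold change of 0.94 against 1.11. All of the tested ligands (4), the receptor Notch4, 11 genes for receptor processing and glycosylation, 8 for ubiquitin ligases, endocytosis and turnover and 2 target genes were called, as were 12 of 14 nuclear cofactors. The highest values were at Dtx4, a Deltex ubiquitin ligase (169 and 150 in Ctrl, 994 and 1086 in sKO, log2 fold change 2.698), at Notch4 (112 and 136 against 507 and 449, 1.94) and at the acetyltransferase gene Kat2b (500 and 653 against 1678 and 2159, 1.73). Low values were found at nuclear cofactors. The lowest was at Crebbp, an acetyltransferase gene, which held 5298 and 7265 in Ctrl against 6591 and 7579 in sKO, with overlapping groups (0.19, limma adjusted p = 0.524). The deacetylase gene Hdac2 held 698 and 912 against 1061 and 1218 (0.51, adjusted p = 0.0612), a call lost without Ctrl replicate 1, sKO replicate 1 or sKO replicate 2. On equal totals 7 of the 40 were called higher, Notch4, Poglut1, Lfng, Aph1c, Dtx4, Kat2b and Hey2, and Crebbp was called lower, beside 24.1% and 4.31% of all tested genes.

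For Pol II S2P, 40 of the 55 genes had a peak and 38 were tested. No gene was called, 0 had an unadjusted p below 0.05, and the median log2 fold change was 0.06. The values ran from -0.40 at the ligand gene Dll1 (130 and 114 in Ctrl, 127 and 67 in sKO) to 0.53 at the ligand gene Dll3 (28 and 54 against 86 and 37). The groups overlapped at both of these genes. They also overlapped at the corepressor gene Ctbp2 (185 and 223 in Ctrl, 207 and 117 in sKO, -0.38) and at Psenen, a subunit of the gamma-secretase that cleaves Notch receptors (109 and 108 against 113 and 68, -0.30). At the Mastermind coactivator gene Maml2 they touched (90 and 153 against 174 and 153, 0.47).

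The genes most like each member were found by the Euclidean distance between log2 scores over the 8 libraries, among 5849 genes tested for both marks. The nearest to Notch1 was Lrp5 at a distance of 0.196, with H4K20me1 scores of 2400 and 3211 in Ctrl against 4201 and 4326 in sKO. The nearest to Rbpj was Vcl at 0.226, with 3062 and 3980 in Ctrl against 4758 and 5101 in sKO. Heyl, Notch2 and Notch3 had no gene as close, their nearest being Ahcyl2 at 0.512, Srpk2 at 0.480 and Tjap1 at 0.643.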

How the data were processed

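CUT&RUN libraries of cultured MuSCs were compared between sKO and Ctrl for each antibody on its own peak set. Per the submitters' processing notes and the methods, the authors trimmed reads with Trimmomatic 0.39, aligned them to mm10 (GRCm38) with STAR 2.7.3a, removed duplicates with Picard 2.21.7 and called peaks, for which SICER 0.0.41 and MACS2 2.1.1 are named. The authors deposited a score per peak and library (normalised coverage), the fraction of the peak inside its listed gene and the distance to the start of that gene. Scores are not read counts, so no counting interval can be given for a peak, and the count model of the study was not used. Instead log2(score + 1), per peak or summed per gene, was fitted with limma 3.58.1 (trend, Benjamini-Hochberg adjustment) over autosomal features with a mean score above 50, after the fits were tested on simulated data. The added 1 makes changes at low peaks look smaller than they are. The fits pool the variance over features, and very small p-values from 2 against 2 libraries rest on that pooling. In H4K20me1, the Notch2 start peak had close replicates (1001 and 1018 in Ctrl, 2918 and 2924 in sKO) and an SE of 0.272. Rbpj peak 2 was more spread in Ctrl (1802 and 2486), yet its SE was 0.276. An exact permutation test of 2 against 2 libraries cannot give a two-sided p below 0.333 and was not used. Alternatives were equal totals, quantile normalisation, a pseudocount of 10, no filter, no trend, a replicate block and leaving out each library. Exons were counted in the Ensembl transcript used for each gene. The genes named are the 7 members and, of 55 other pathway genes, those with the 3 highest and 3 lowest fold changes or called on equal totals, except for results that are not reported here. The members and lists were chosen with earlier results of these data known.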

Additional observations from a re-analysis of the deposited data

Results flagged for a closer look

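Some peaks within 20 kb of a Notch gene are listed with no gene and so entered no sum above. All 4 such H4K20me1 peaks had both sKO scores above both Ctrl scores. The nearest to a member ends 1385 bases 5′ of Hes1, the target gene with no listed peak (GRCm38 chr16:30059600-30062999), and held 34 and 34 in Ctrl against 192 and 260 in sKO, a log2 ratio of the means of 2.73 (limma 2.68, adjusted p = 1.45e-07). A pair upstream of Notch1 held 57 and 95 against 323 and 302 (chr2:26521000-26528199, 2.04) and 368 and 367 against 1354 and 1468 (chr2:26529600-26554599, 1.94). The peak upstream of Notch2 (chr3:97993000-97994599) held 22 and 31 in Ctrl against 133 and 115 in sKO (2.23). They lie outside the listed genes, in a table where 90.1% of tested peaks were called higher. All 4 fall in the lowest band of Ctrl score per kb, which had a median log2 fold change of 1.75 and a 95th percentile of 2.60. The limma value of the peak near Hes1 was above that percentile, and those of the other peaks were below it.

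Of 24 Pol II S2P peaks of the same kind, 6 had both sKO scores above both Ctrl scores and 0 had both below. Among autosomal peaks listed with a gene these shares were 13.7% and 7.37%, and among peaks listed with no gene they were not counted. The log2 ratios of the means were 0.73, 0.59 and 0.75 at 3 peaks upstream of Notch1 (chr2:26525936-26526144, chr2:26531751-26532639 and chr2:26533143-26533553). Downstream of Notch2 (chr3:98157177-98158278) the scores were 91 and 118 in Ctrl against 313 and 138 in sKO (1.11). Downstream of Rbpj they were 43 and 41 against 46 and 55 (chr5:53659915-53660331, 0.27) and 94 and 151 against 428 and 248 (chr5:53667292-53668919, 1.46, limma adjusted p = 0.253). None of these Pol II S2P peaks was called on the scores as deposited. On equal totals the peak downstream of Notch2 (0.86, adjusted p = 0.0149) and the last peak downstream of Rbpj (1.30, adjusted p = 6.46e-06) were called higher, where 560 of 22353 tested peaks were, and both were also called after quantile normalisation (adjusted p = 0.0307 and 0.000147).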

How the results depend on the processing

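The scale of the H4K20me1 table set most calls. After equal totals the calls were 3308 genes higher and 592 lower, with 10591 and 1355 peaks, a median log2 fold change of 0.18, 1 Notch gene higher and 1 lower, 7 other pathway genes higher and 1 lower, and 5 peaks of the Notch genes higher and 1 lower. The values were -0.14 at Notch1, -0.54 at Rbpj, -0.74 at Crebbp and -0.42 at Hdac2. By peak they were -0.25 at Notch1 peak 2, -0.0101, -0.21, -0.20 and -0.44 at Notch2 peaks 2 to 5, -0.15 at Notch3 peak 2 and -0.76, -0.43 and -0.24 at Rbpj peaks 2 to 4. For Pol II S2P, 108 genes were called higher and 73 lower and 560 and 266 peaks, 3 of the lower ones in Notch3, with -0.10 at Notch2 and -0.11 at Rbpj. Quantile normalisation gave 1422 genes higher and 1531 lower, 4738 and 4746 peaks, a median of 0.0017, 1 Notch gene higher, 3 other pathway genes higher and 2 lower, and 6 peaks of the Notch genes higher and 2 lower. The values were -0.11 at Notch1, -0.48 at Rbpj, -0.67 at Crebbp, -0.61 at Hdac2, -0.062 at Notch1 peak 2, -0.0068, -0.60, -0.17 and -0.65 at Notch2 peaks 2 to 5, -0.45 at Notch3 peak 2 and -0.65, -0.47 and -0.43 at Rbpj peaks 2 to 4. For Pol II S2P it gave 112 genes higher and 29 lower, 474 and 153 peaks, 2 peaks of Notch3 lower, -0.12 at Notch2 and -0.0692 at Rbpj.

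Other settings moved counts only. Without the mean-variance trend 4 H4K20me1 peaks were lower, and 5 and 1 Pol II S2P genes and 35 and 3 peaks were called higher and lower. Without the filter 1 Pol II S2P gene and 3 peaks were higher. The replicate numbers share no stated origin. Across genes the replicate differences of the genotypes were nearly uncorrelated (correlation 0.041 over 13750 genes for H4K20me1 and -0.043 over 8531 for Pol II S2P). Such a correlation leaves out a shift of a whole library, and H4K20me1 totals were higher in replicate 2 of both genotypes. With the replicate block 12718 H4K20me1 genes were called higher, 0 H4K20me1 peaks lower, and 0 Pol II S2P peaks higher and 0 lower, and no call of a Notch gene changed. A pseudocount of 10 moved no count by over 1.5 times and changed no call of a Notch gene or of its H4K20me1 peaks.

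Leaving out each library in turn gave 5249 to 13376 H4K20me1 genes higher and 0 to 13 lower, 17895 to 39887 peaks higher and 0 to 47 lower, medians of 0.90 to 1.33, 2 to 6 Notch genes, 9 to 39 other pathway genes and 5 to 14 peaks of the Notch genes higher, -0.0397 to 0.42 at Crebbp and -0.0627 to 0.40 at Rbpj peak 2. The Pol II S2P ranges were 0 to 2 genes lower, 0 to 112 peaks higher and 0 to 3 lower, -0.054 to 0.51 at Notch1, -0.19 to 0.27 at Notch2, -0.64 to -0.0153 at Notch3, -0.24 to 0.31 at Rbpj, -0.32 to 0.0638 at Hes1, -0.78 to 0.53 at Heyl, -0.85 to 0.0605 at Dll1, -0.79 to 0.0272 at Ctbp2, -0.67 to 0.0581 at Psenen, -0.0717 to 1.12 at Dll3 and -0.87 to 0.0189 at Notch3 peak 4. The first-peak ratio called 0 to 800 genes. The cause of these changes was not tested. With 2 libraries per genotype and no read counts, a small difference in Pol II S2P could not be detected on the scores as deposited. On equal totals the SE of the Notch genes were smaller, from 0.11 at Notch2 to 0.25 at Heyl.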
